A study of Mus musculus with 8 samples.

Results

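The 37 genes described here are the T cell identity and T cell receptor (TCR) signalling genes of a list chosen by name: the CD3 chains, the coreceptors, other surface receptors of T cells, and the kinases, adaptors, phosphatases and transcription factors that work with them. The list was chosen with earlier results of these data known, so its shares set against all genes are a description. All 37 were found by symbol among the 27179 genes of the count table, and 36 of them were among the 14382 genes that passed the filter on low counts. The samples were 8 whole primary tumours grown from 4T1.13 cells, a metastatic mouse mammary carcinoma line, in the mammary fat pad of female BALB/c mice of 7 to 8 weeks. The comparison asked how the transcriptome of the tumour differed when miR-21 activity was suppressed in the carcinoma cells. In the miR-21-KD line, a lentiviral vector with an H1 promoter makes a decoy RNA that captures mature miR-21. The VC line holds this vector with a scrambled RNA in its place. Both vectors also carry mCherry and hygromycin resistance, and each line was made by pooling single cell clones. The tumours of a group shared their pooled line, so other differences between the lines cannot be told apart from suppression of miR-21. The mice were immunocompetent, and the vectors were carried by the injected cells, not by the host. There were 4 tumours in each group, all given in the labels as taken at day 14 after injection. The study's methods name an earlier day for this collection, as miR-21-KD tumours began to regress, so the day is uncertain.

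The TCR has no signalling domain of its own and depends on the CD3 chains and the zeta chain, whose cytoplasmic motifs are phosphorylated by the kinase LCK once a coreceptor brings it to the receptor. ZAP70 then binds these motifs and phosphorylates the scaffolds LAT and SLP-76, from which signals run to calcium and NFAT, to RAS through RASGRP1, and to NF-kappaB through protein kinase C theta. In a tumour, transcripts such as those of CD3 delta, epsilon and gamma come mainly from infiltrating T cells and that of the zeta chain also from NK cells, whereas those of CD45, FYN, TEC and ETS1 are also made by other leucocytes or by other cells.

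Libraries held between 12134849 and 13592695 counted reads, so that a floor of 3 reads corresponded to 0.221 to 0.244 CPM (counts scaled to a common library size with TMM factors). The row of the miR-21 gene itself held 0 counts in all 8 tumours, and since the vector sequesters the mature RNA, it would not check the labels. Of 6 epithelial markers, Krt8 and Krt18, keratins of luminal epithelium, were present in every tumour, at 562 to 939 CPM in the VC and 173 to 643 CPM in the miR-21-KD group and at 674 to 1211 CPM in the VC and 188 to 688 CPM in the miR-21-KD group. The other 4 were higher in the miR-21-KD group, with Epcam at 13.5 to 49.8 CPM in the VC and 40.6 to 124 CPM in the miR-21-KD group, Cdh1 at 16.7 to 74.1 CPM in the VC and 89.1 to 147 CPM in the miR-21-KD group, Krt5 at 3.67 to 26.6 CPM in the VC and 9.03 to 152 CPM in the miR-21-KD group and Krt14 at 2.07 to 15 CPM in the VC and 22.5 to 94 CPM in the miR-21-KD group. Levels are in CPM and are listed in the order of tumours 1 to 4 of each group. Changes are given as log2 fold changes of miR-21-KD against VC tumours. Adjusted p-values are from edgeR's quasi-likelihood test over all 14382 genes, with a threshold of 0.05. The labels do not say whether each tumour came from its own mouse, and p-values measure the spread between these samples. Whole tumours were sequenced, so more cells of a type and more RNA per cell cannot be told apart.

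The sequestered RNA is miR-21a-5p, which is read from the minus strand at chr11:86584120-86584141 (GRCm38). Its sequence is printed because its seed, bases 2 to 8, in capitals, sets which transcripts it can pair with. Of the 37 genes, 3 (8.11%) held the complement of the seed, ATAAGCT, in an annotated 3′ untranslated region, against 8.15% of the 13342 tested genes that have one. These 3 were Rasgrp1, Satb1 and Nfatc1, and the sites of the first pair are shown with the match in capitals. A match is a string of letters and not a proven site. The decoy was carried by the injected carcinoma cells, so a match does not show that miR-21 was captured where the transcript was made. Whether a match bears on a change was not tested.
miR-21a-5p: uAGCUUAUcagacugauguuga
Rasgrp1 site, chr2:117281553-117281575 (minus strand): atctacaaATAAGCTaatgggtg
Satb1 site, chr17:51738943-51738965 (minus strand): tcatgcaaATAAGCTtaggtaaa

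The T cell genes were mostly higher in miR-21-KD tumours. Of the 36 tested, 23 were higher, 0 were lower and 13 did not pass the test. Among all 14382 tested genes, 19.6% were higher and 19.5% lower. The fitted log2 fold change was above 0 for 35 of the 36, against 48.8% of all tested genes, and the members' median was 1.24 against -0.01 for all tested genes. For 15 of the 36 every miR-21-KD tumour lay above every VC tumour, which held for 16.4% of all tested genes, and for 0 members every miR-21-KD tumour lay below, against 18.8%. Changes ran from -0.03 (Ets1) to 1.75 (Sh2d1a), as the plot of fitted changes shows. The remaining member, Trat1, which encodes a transmembrane adaptor of the TCR complex, was too low to test, at 0.545 ± 0.0848 CPM in the VC and 1.02 ± 0.54 CPM in the miR-21-KD group (mean ± SD, n = 4).

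**Figure D1:**
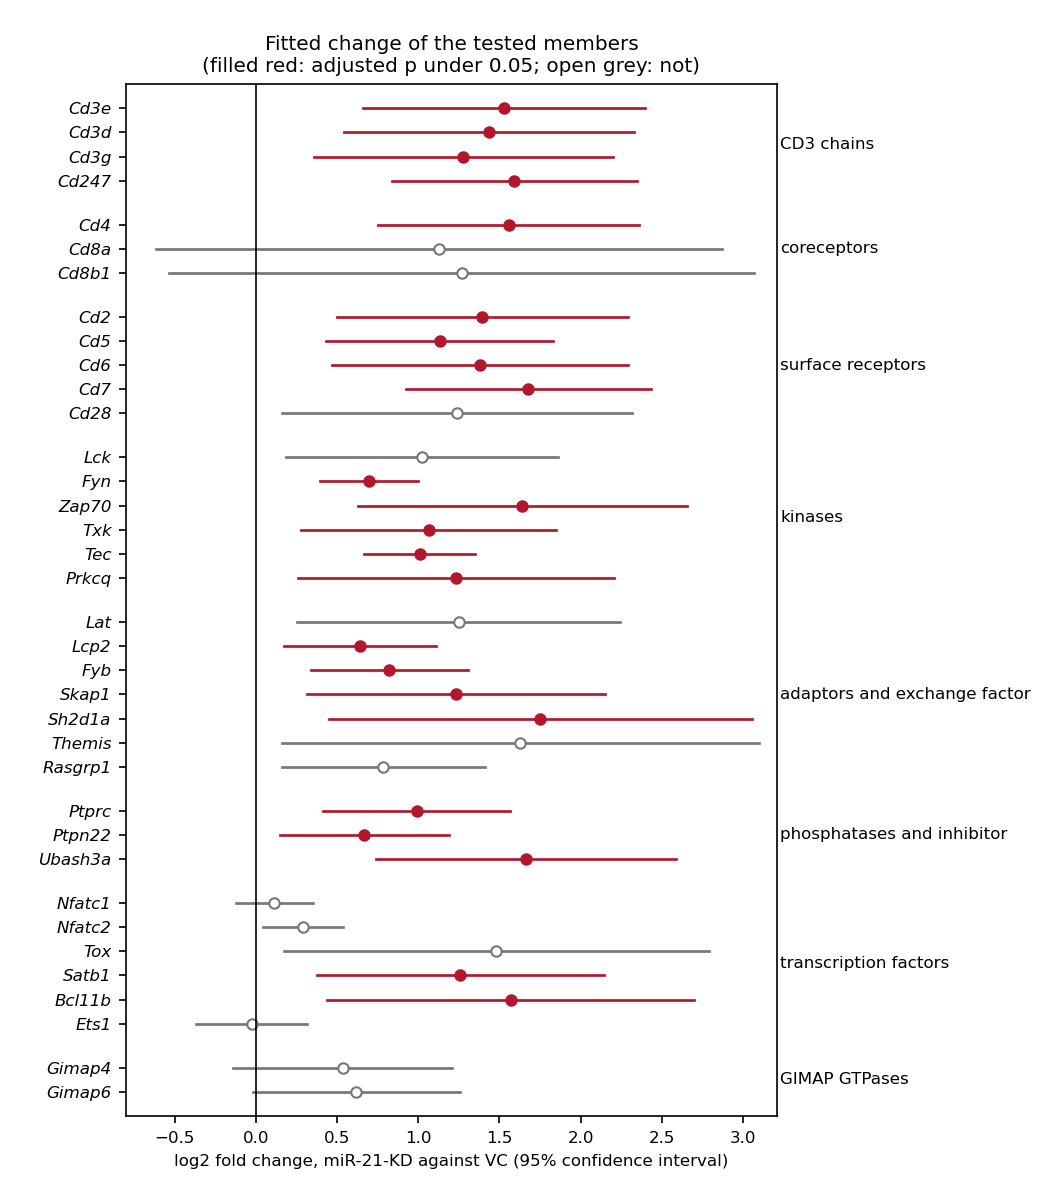
Fitted log2 fold change of miR-21-KD against VC tumours (horizontal axis) with its 95% confidence interval for the 36 tested members, in order of role. Filled red points are the 23 members with an adjusted p under 0.05, open grey points the other 13, and all but Ets1 lie to the right of 0.

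The 4 genes of the CD3 complex were all higher in miR-21-KD tumours, with log2 fold changes between 1.28 and 1.59. Cd3e, whose product pairs with both CD3 delta and CD3 gamma, was at 11.5, 4.54, 7.24 and 15.2 CPM in the VC tumours, and at 38.1, 29.6, 16.5 and 27.1 CPM in the miR-21-KD tumours. Every miR-21-KD tumour was above every VC tumour, although miR-21-KD tumour 3 and VC tumour 4 lay close together (log2 fold change 1.53 ± 0.381 (SE), adjusted p = 0.0166). Cd3d, which encodes the delta chain, was at 6.34, 3.51, 5.28 and 13.4 CPM in the VC tumours, and at 23.2, 18.1, 12.8 and 23 CPM in the miR-21-KD tumours. Here miR-21-KD tumour 3 was just under VC tumour 4, and all other miR-21-KD tumours were above the VC group (log2 fold change 1.44 ± 0.393 (SE), adjusted p = 0.0224). Cd3g, for the gamma chain, was at 15.9, 6.54, 11.5 and 27.6 CPM in the VC tumours, and at 50.1, 34.8, 24.4 and 40.1 CPM in the miR-21-KD tumours. The groups overlapped in the same way (log2 fold change 1.28 ± 0.405 (SE), adjusted p = 0.0363). Cd247, for the zeta chain that carries most of the phosphorylation motifs, was at 4.64, 2.95, 4.25 and 7.82 CPM in the VC tumours, and at 18.2, 14.3, 9.0 and 17.9 CPM in the miR-21-KD tumours. The groups did not overlap (log2 fold change 1.59 ± 0.331 (SE), adjusted p = 0.0102). Summed over the 4 genes, the level was 38.4, 17.5, 28.3 and 64 CPM in the VC tumours, and 129.5, 96.8, 62.7 and 108 CPM in the miR-21-KD tumours. Per kilobase of exon, Cd3g had the highest level of the 4, at 15 in the VC and 36.5 in the miR-21-KD group (CPM per kb), and Cd247 the lowest, at 1.08 in the VC and 3.25 in the miR-21-KD group. Cd247 shares exonic positions with Pou2f1 on the other strand, and whether counting used strand is not given in the sources used here, so its counts may include reads of that gene.

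Cd3g, Cd3d and Cd3e are neighbours on chromosome 9, at chr9:44969572-44980431, chr9:44981786-44987339 and chr9:44998740-45009613 (GRCm38, GENCODE). Cd3g and Cd3d are transcribed away from each other with 1354 bases between them, and Cd3d and Cd3e lie 11400 bases apart. Their promoters, from 250 bases before to 50 after the start as RefSeq gives it (GRCm38.p6), are printed because all 3 neighbours were higher in miR-21-KD tumours. Capitals mark the core letters AGGAAG of ETS factors, TGTGGT of RUNX factors and CTTTGA of TCF and LEF factors, read on both strands.
Cd3g promoter, chr9:44980382-44980681 (minus strand): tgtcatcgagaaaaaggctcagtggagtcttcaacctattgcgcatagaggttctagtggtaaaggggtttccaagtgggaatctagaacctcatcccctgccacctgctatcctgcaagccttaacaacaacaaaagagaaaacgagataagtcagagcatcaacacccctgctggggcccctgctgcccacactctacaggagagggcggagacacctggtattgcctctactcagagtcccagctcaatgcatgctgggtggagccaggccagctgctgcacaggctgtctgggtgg
Cd3d promoter, chr9:44981536-44981835 (plus strand): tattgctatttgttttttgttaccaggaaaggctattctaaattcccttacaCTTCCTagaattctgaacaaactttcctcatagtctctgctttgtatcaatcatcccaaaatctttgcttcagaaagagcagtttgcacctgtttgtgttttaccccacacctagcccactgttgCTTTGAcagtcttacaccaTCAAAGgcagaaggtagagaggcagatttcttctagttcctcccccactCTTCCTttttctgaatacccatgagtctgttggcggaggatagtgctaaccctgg
Cd3e promoter, chr9:45009562-45009861 (minus strand): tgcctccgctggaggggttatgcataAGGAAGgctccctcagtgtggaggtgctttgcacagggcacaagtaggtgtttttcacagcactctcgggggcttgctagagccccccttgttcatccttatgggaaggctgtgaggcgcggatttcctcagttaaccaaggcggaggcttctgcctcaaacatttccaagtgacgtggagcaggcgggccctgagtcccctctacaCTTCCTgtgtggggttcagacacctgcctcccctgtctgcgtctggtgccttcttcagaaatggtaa

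The Cd3d window held the ETS letters 2 times and the TCF and LEF letters 2 times, the Cd3e window held the ETS letters 2 times, and the Cd3g window held none of the 3 strings. RefSeq promoters were at hand for 26 of the 37 members, with 38 windows in all. The ETS letters occurred in 60.5% of the members' windows and in 35.4% of all 32851 windows of this length. The RUNX letters occurred in 18.4% against 16.8%, and the TCF and LEF letters in 28.9% against 16.0%. Windows of 1 gene can overlap, and a string is not a bound site.

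Of the coreceptors, Cd4 was higher in miR-21-KD tumours and the CD8 genes did not pass the test. Cd4, which binds MHC class II (chr6:124864692-124888221), was at 24.2, 12, 19 and 34.5 CPM in the VC tumours, and at 100, 49.3, 44.9 and 69.8 CPM in the miR-21-KD tumours. Every miR-21-KD tumour was above the VC range (log2 fold change 1.56 ± 0.353 (SE), adjusted p = 0.0128). Cd8a, for the alpha chain that binds MHC class I (chr6:71373427-71379173), was at 5.38, 1.28, 3.46 and 20.1 CPM in the VC tumours, and at 23.2, 19, 4.94 and 19.1 CPM in the miR-21-KD tumours. VC tumour 4 was as high as most miR-21-KD tumours, while miR-21-KD tumour 3 lay within the range of the other VC tumours (log2 fold change 1.13, 95% interval -0.61 to 2.87, adjusted p = 0.261). Cd8b1, for the beta chain of the CD8 heterodimer of conventional T cells, was at 3.61, 0.558, 2.6 and 13 CPM in the VC tumours, and at 17.8, 12.5, 3.65 and 13.7 CPM in the miR-21-KD tumours. Here too VC tumour 4 lay within the miR-21-KD range (log2 fold change 1.27, 95% interval -0.53 to 3.07, adjusted p = 0.224). Without VC tumour 4, Cd8a had log2 fold change 2.28 and adjusted p = 0.0243 and Cd8b1 had log2 fold change 2.38 and adjusted p = 0.0279. This was the only one of 17 alternative fits to call Cd8a, and of 16 to call Cd8b1. With other tumours left out, adjusted p reached 0.446 for Cd8a and 0.402 for Cd8b1. VC tumour 4 also carried the most transcripts of the B cell receptor component Cd79a, at 0.884, 0.399, 0.551 and 31.6 CPM in the VC tumours, and at 1.53, 1.49, 1.7 and 11.8 CPM in the miR-21-KD tumours. The relation between the Cd79a level and the Cd8a level of that tumour was not tested.

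**Figure D2:**
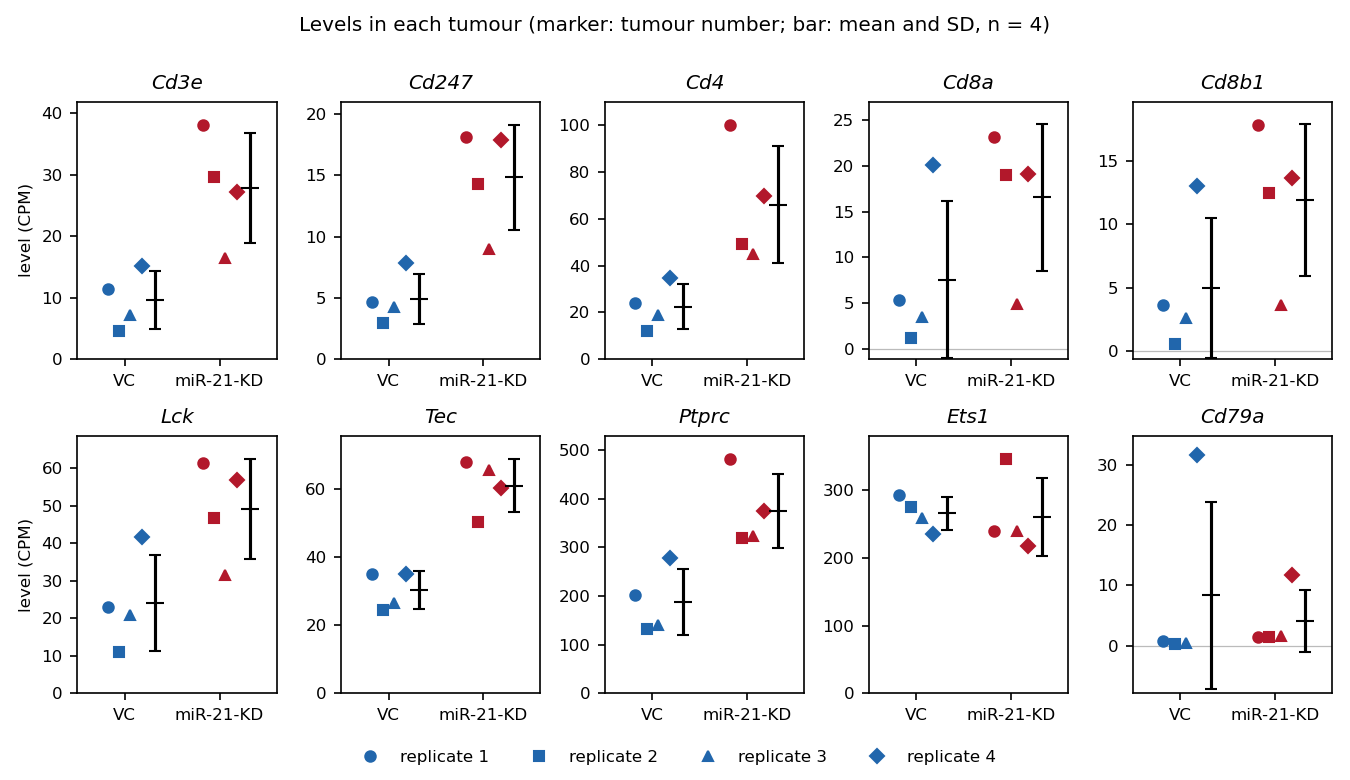
Level in CPM (vertical axis, 0 marked by the grey line) of 9 members and of the B cell marker Cd79a in each VC (blue) and miR-21-KD (red) tumour, with the marker shape giving the tumour's number and the bar the group mean and SD (n = 4). Cd3e, Cd247, Cd4, Tec and Ptprc did not overlap between groups, Cd8a and Cd8b1 overlapped through VC tumour 4 and miR-21-KD tumour 3, and Cd79a was high in both tumours numbered 4.

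Among the 5 other surface receptors, 4 were higher and Cd28 did not pass the test. Cd7, an immunoglobulin superfamily receptor of T and NK cells (chr11:121036747-121039418), had the largest change of the 5 and was at 5.53, 1.99, 5.43 and 6.19 CPM in the VC tumours, and at 19.2, 13.7, 11.6 and 16.9 CPM in the miR-21-KD tumours. All miR-21-KD tumours were above all VC tumours (log2 fold change 1.68 ± 0.332 (SE), adjusted p = 0.00906). Cd2, an adhesion receptor that binds CD48 in mice, was at 12.7, 4.3, 8.35 and 17.3 CPM in the VC tumours, and at 36, 27.7, 17.8 and 30.8 CPM in the miR-21-KD tumours. The groups did not overlap (log2 fold change 1.39 ± 0.393 (SE), adjusted p = 0.0247). Cd6, a scavenger receptor family member on T cells, ranged from 3.03 to 14 CPM in the VC and 14.1 to 25.1 CPM in the miR-21-KD group, with miR-21-KD tumour 3 just above VC tumour 4 (log2 fold change 1.38 ± 0.402 (SE), adjusted p = 0.0274). Its neighbour and relative Cd5, which dampens TCR signals and is also made by some B cells, ranged from 3.83 to 9.2 CPM in the VC and 9.16 to 18.7 CPM in the miR-21-KD group, where miR-21-KD tumour 3 was slightly under VC tumour 4 (log2 fold change 1.13 ± 0.307 (SE), adjusted p = 0.0217). Cd28, the costimulatory receptor for CD80 and CD86, was at 6.92, 3.11, 3.15 and 10.8 CPM in the VC tumours, and at 21.9, 13.5, 6.97 and 14.4 CPM in the miR-21-KD tumours. Both groups were spread widely and overlapped (log2 fold change 1.24, 95% interval 0.16 to 2.31, adjusted p = 0.0654). It passed in the fit with the tumour number as a block (log2 fold change 1.32 and adjusted p = 0.0159 with the replicate block). The labels name no pairing of tumours by number. The block was chosen from correlations in these same data, so calls that it gained or lost are a description only.

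Of the 6 kinases, 5 were higher, and Lck just missed the threshold. Lck, the Src family kinase that binds CD4 and CD8 (chr4:129548344-129573641), was at 22.9, 11.2, 20.9 and 41.7 CPM in the VC tumours, and at 61.4, 46.8, 31.5 and 56.8 CPM in the miR-21-KD tumours. VC tumour 4 lay above miR-21-KD tumour 3 and the other VC tumours below the miR-21-KD range (log2 fold change 1.02, 95% interval 0.18 to 1.86, adjusted p = 0.055). With the replicate block it passed (log2 fold change 1.11 and adjusted p = 0.0237 with the replicate block). Zap70, the Syk family kinase that docks on the phosphorylated receptor (chr1:36761798-36782818), was at 3.09, 2.07, 3.62 and 9.12 CPM in the VC tumours, and at 19.8, 11.9, 9.97 and 14.3 CPM in the miR-21-KD tumours. No overlap was seen between the groups (log2 fold change 1.64 ± 0.446 (SE), adjusted p = 0.0218). Prkcq, protein kinase C theta, ranged from 3.27 to 15.6 CPM in the VC and 14.9 to 28.2 CPM in the miR-21-KD group, with an overlap between VC tumour 4 and miR-21-KD tumour 3 (log2 fold change 1.23 ± 0.428 (SE), adjusted p = 0.0485).

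The remaining kinases are not confined to T cells. Fyn, a Src family kinase also made in many other tissues (chr10:39369764-39565381), was at 100.1, 76, 80.2 and 89.4 CPM in the VC tumours, and at 174, 123, 133 and 132 CPM in the miR-21-KD tumours. The groups did not overlap, and the spread within each was small for this list (log2 fold change 0.70 ± 0.134 (SE), adjusted p = 0.00811). Tec, a kinase of myeloid cells and lymphocytes (chr5:72755716-72868459), was at 35.2, 24.6, 26.5 and 35 CPM in the VC tumours, and at 67.9, 50.4, 65.7 and 60.3 CPM in the miR-21-KD tumours. It had the smallest adjusted p of the members (log2 fold change 1.01 ± 0.151 (SE), adjusted p = 0.00571). Txk, a Tec family kinase of T and NK cells whose gene lies 2938 bases from Tec, ranged from 1.91 to 5.54 CPM in the VC and 4.62 to 8.23 CPM in the miR-21-KD group, and VC tumour 4 reached into the miR-21-KD range (log2 fold change 1.06 ± 0.346 (SE), adjusted p = 0.0391). Per kilobase of exon the levels of Fyn were 22.5 in the VC and 36.6 in the miR-21-KD group (CPM per kb), those of Tec 11.3 in the VC and 22.8 in the miR-21-KD group, those of Lck 10.4 in the VC and 21.2 in the miR-21-KD group and those of Zap70 1.99 in the VC and 6.22 in the miR-21-KD group.

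Adaptors and the RAS exchange factor were higher for 4 of the 7 tested genes. Fyb, for the adaptor ADAP that links the TCR to integrins, was at 50.7, 34.8, 34.4 and 55.1 CPM in the VC tumours, and at 104, 65.3, 63.4 and 77.4 CPM in the miR-21-KD tumours. No overlap was seen between the groups (log2 fold change 0.82 ± 0.212 (SE), adjusted p = 0.0185). Skap1, for the partner of ADAP, was at 7.74, 2.15, 5.35 and 8.23 CPM in the VC tumours, and at 18.9, 13.1, 8.43 and 14.8 CPM in the miR-21-KD tumours. There miR-21-KD tumour 3 was barely above VC tumour 4 (log2 fold change 1.23 ± 0.403 (SE), adjusted p = 0.0401). Sh2d1a, for the adaptor SAP of the SLAM receptors, was at 1.62, 0.159, 1.02 and 1.79 CPM in the VC tumours, and at 5.89, 2.98, 2.11 and 4.61 CPM in the miR-21-KD tumours. It had the largest fitted change of the members (log2 fold change 1.75 ± 0.573 (SE), adjusted p = 0.0403) but rested on few reads, with 2 counted in VC tumour 2, and its exons overlap Tenm1 on the other strand. Lcp2, for SLP-76, the scaffold that is also used in myeloid cells and platelets, ranged from 60.8 to 114 CPM in the VC and 112 to 161 CPM in the miR-21-KD group, with overlap (log2 fold change 0.64 ± 0.205 (SE), adjusted p = 0.0372), and its exons overlap 4930469K13Rik on the other strand.

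Lat, Themis and Rasgrp1 did not pass the test. Lat, for the membrane scaffold of the TCR (chr7:126363824-126369541), was at 8.18, 2.79, 7.95 and 14.7 CPM in the VC tumours, and at 26.2, 17, 12.8 and 23.8 CPM in the miR-21-KD tumours. Only VC tumour 4 reached into the miR-21-KD range (log2 fold change 1.25, 95% interval 0.25 to 2.24, adjusted p = 0.0502). With the replicate block it passed (log2 fold change 1.37 and adjusted p = 0.0224 with the replicate block). Rasgrp1, the diacylglycerol-dependent activator of RAS, which holds the seed match printed above, was at 20, 13.2, 14.8 and 30.1 CPM in the VC tumours, and at 44.5, 28.7, 26.7 and 34.8 CPM in the miR-21-KD tumours. VC tumour 4 lay above miR-21-KD tumours 2 and 3 (log2 fold change 0.78, 95% interval 0.16 to 1.41, adjusted p = 0.0503), and the gene passed with the block (log2 fold change 0.83 and adjusted p = 0.0139 with the replicate block). Themis, needed for thymocyte selection, was at 1.62, 0.159, 0.709 and 2.44 CPM in the VC tumours, and at 5.49, 4.63, 1.62 and 3.59 CPM in the miR-21-KD tumours. It was low in all tumours, with 2 reads in VC tumour 2, and its interval was wide (log2 fold change 1.63, 95% interval 0.16 to 3.10, adjusted p = 0.0733).

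The phosphatases and the inhibitor were all higher. Ptprc, for the pan-leucocyte phosphatase CD45 that keeps LCK active (chr1:138063407-138175306), was at 203, 132, 141 and 279 CPM in the VC tumours, and at 481, 319.6, 322 and 375 CPM in the miR-21-KD tumours. The groups did not overlap (log2 fold change 0.99 ± 0.253 (SE), adjusted p = 0.018). Per kilobase of exon it had the highest level of the members in miR-21-KD tumours, at 36.8 in the VC and 73.2 in the miR-21-KD group (CPM per kb). Ubash3a, for a suppressor of TCR signalling, was at 2.73, 1.36, 2.36 and 4.48 CPM in the VC tumours, and at 13.2, 8.32, 4.78 and 8.44 CPM in the miR-21-KD tumours. No overlap was seen between the groups (log2 fold change 1.66 ± 0.406 (SE), adjusted p = 0.0156). Ptpn22, for a phosphatase that switches off LCK and ZAP70 and is also made in myeloid cells, was at 36.7, 18.7, 32.3 and 23.9 CPM in the VC tumours, and at 41.9, 58.5, 36.1 and 41 CPM in the miR-21-KD tumours. VC tumour 1 reached into the miR-21-KD range (log2 fold change 0.67 ± 0.23 (SE), adjusted p = 0.0467), and the call was lost with the replicate block (log2 fold change 0.68 and adjusted p = 0.0783 with the replicate block).

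Of the 6 transcription factors, Satb1 and Bcl11b were higher and 4 did not pass the test. Satb1, a chromatin organiser of T cells that holds a seed match, was at 14.7, 6.46, 11.4 and 25.2 CPM in the VC tumours, and at 45.5, 33.1, 21.7 and 37.8 CPM in the miR-21-KD tumours. Only VC tumour 4 reached into the miR-21-KD range (log2 fold change 1.26 ± 0.389 (SE), adjusted p = 0.0333). Bcl11b, which fixes T lineage commitment (chr12:107910403-108003602), was at 3.54, 0.957, 2.99 and 5.95 CPM in the VC tumours, and at 14.8, 8.64, 5.43 and 11.1 CPM in the miR-21-KD tumours. VC tumour 4 and miR-21-KD tumour 3 overlapped slightly (log2 fold change 1.57 ± 0.498 (SE), adjusted p = 0.0364). Tox, a factor of thymocytes and of chronically stimulated T cells, was at 1.47, 0.239, 0.551 and 2.52 CPM in the VC tumours, and at 4.12, 2.98, 2.35 and 3.99 CPM in the miR-21-KD tumours. It did not pass (log2 fold change 1.48, 95% interval 0.17 to 2.79, adjusted p = 0.0688) without the block and did so with it (log2 fold change 1.69 and adjusted p = 0.0266 with the replicate block).

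The NFAT genes and Ets1 had small fitted changes. Nfatc1, induced on TCR signalling but also made outside T cells, also holds a seed match. It was at 48, 57.1, 55.7 and 60.4 CPM in the VC tumours, and at 67.9, 59, 52.4 and 60 CPM in the miR-21-KD tumours. The groups overlapped, and the interval bounds the change to within 0.35 on the log2 scale (log2 fold change 0.11, 95% interval -0.12 to 0.35, adjusted p = 0.407). Nfatc2, the NFAT factor of resting T cells, was at 33.4, 34.1, 33.2 and 28.5 CPM in the VC tumours, and at 46.3, 38.9, 36.1 and 36.6 CPM in the miR-21-KD tumours. The groups did not overlap, but the difference was small (log2 fold change 0.29, 95% interval 0.04 to 0.54, adjusted p = 0.0616), and with the block it came just under the threshold (log2 fold change 0.29 and adjusted p = 0.0484 with the replicate block). Ets1, an ETS factor of lymphocytes, endothelium and carcinoma cells, was at 293, 274, 259 and 236 CPM in the VC tumours, and at 240.1, 346, 239.7 and 218 CPM in the miR-21-KD tumours. Only miR-21-KD tumour 2 was above the VC range, and the sign of the difference depended on the scaling (log2 fold change -0.03, 95% interval -0.37 to 0.32, adjusted p = 0.904). Per kilobase of exon Ets1 had the highest level of the members in VC tumours, at 52.3 in the VC and 51.3 in the miR-21-KD group (CPM per kb).

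Gimap4 and Gimap6, GTPases of lymphocyte survival that are neighbours on chromosome 6, did not pass the test. Gimap4 was at 49.5, 43, 35.4 and 84.1 CPM in the VC tumours, and at 104, 70.4, 51 and 81.2 CPM in the miR-21-KD tumours. VC tumour 4 was higher than miR-21-KD tumours 2, 3 and 4 (log2 fold change 0.53, 95% interval -0.14 to 1.21, adjusted p = 0.176). Gimap6 was at 29.4, 20.9, 19.9 and 43.8 CPM in the VC tumours, and at 57.3, 41.4, 30.6 and 45.9 CPM in the miR-21-KD tumours. VC tumour 4 lay above miR-21-KD tumours 2 and 3 (log2 fold change 0.62, 95% interval -0.02 to 1.26, adjusted p = 0.107). With the replicate block Gimap4 had log2 fold change 0.57 and adjusted p = 0.0486 with the replicate block, and Gimap6 had log2 fold change 0.66 and adjusted p = 0.0262 with the replicate block.

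Within each group the same tumours were high or low for most of the 36 tested members. VC tumour 4 was the highest VC tumour for 31 and VC tumour 2 the lowest for 29, while miR-21-KD tumour 1 was the highest of its group for 33 and miR-21-KD tumour 3 the lowest for 31. The map of levels shows these orders as columns of one shade. Set beside the VC tumour of the same number, the miR-21-KD tumour was higher in 4 of 4 cases for 32 members, in 3 for Cd8a and Gimap4, in 2 for Nfatc1 and in 1 for Ets1. Members that follow the same tumours are not independent observations of the knockdown.

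**Figure D3:**
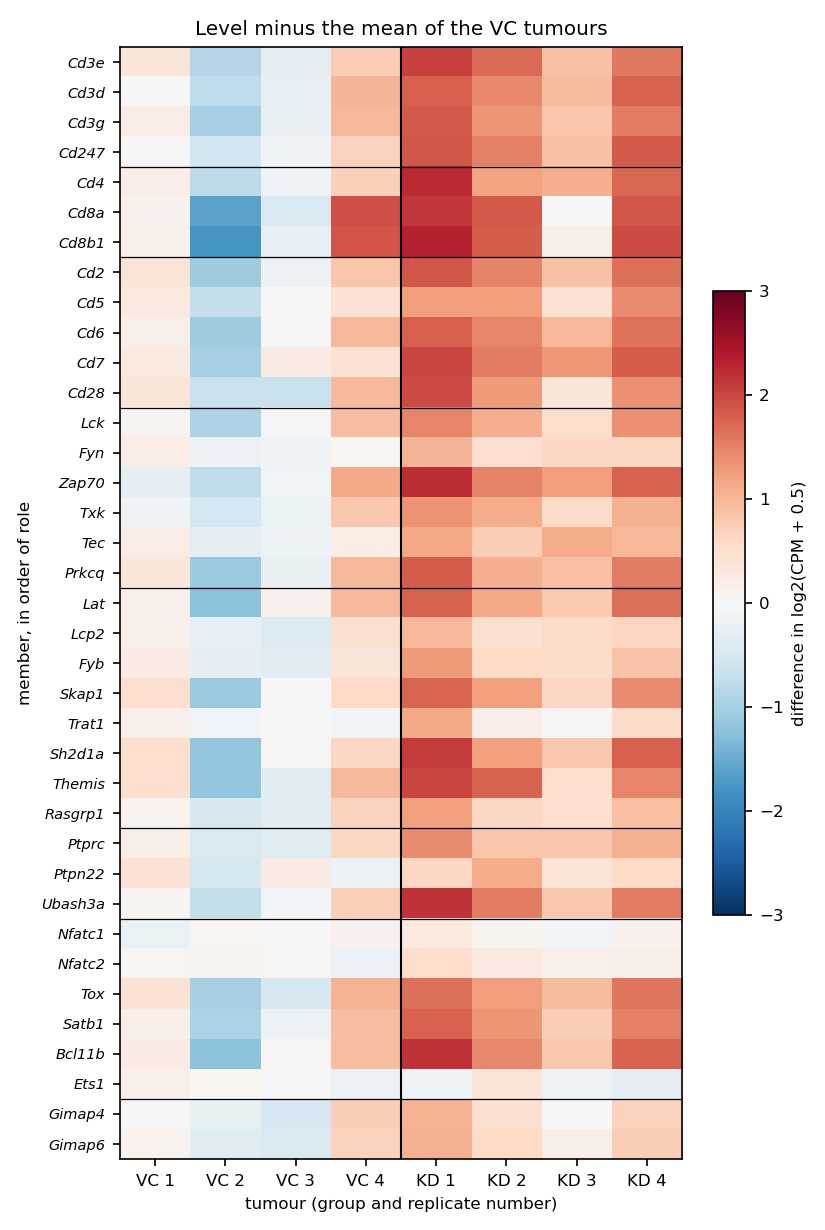
Level of each of the 37 members (rows, in order of role) in each tumour (columns), as the difference in log2(CPM + 0.5) from the mean of the 4 VC tumours. Red is above and blue below that mean, and most rows are bluest in VC tumour 2 and darkest in miR-21-KD tumour 1, while Nfatc1, Nfatc2 and Ets1 stay pale throughout.

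The number of calls depended on single tumours, although the fitted change of the called members stayed above 0 without any one of them. Without VC tumour 3, 5 of 36 members were called higher, against 9.90% of all tested genes: Cd247, Cd4, Cd7, Fyn and Tec. These 5 were also called higher in each of the 17 alternative fits. The 18 members that lost the call without VC tumour 3 then had adjusted p-values between 0.0501 and 0.121, and log2 fold changes between 0.51 and 1.69. Without miR-21-KD tumour 1 and without miR-21-KD tumour 4, 9 members each remained called, against 12.9% and 12.1% of all genes, and the 14 that lost the call had adjusted p-values up to 0.116 and 0.106. Without VC tumour 2 the number was 14 (all genes 11.6%), with adjusted p-values of the 9 lost calls up to 0.101. Without VC tumour 1 it was 15 (all genes 18.9%), with those of the 8 lost calls up to 0.0797. It was 19 without miR-21-KD tumour 2 (all genes 22.5%) and 20 without miR-21-KD tumour 3 (all genes 13.6%). Without VC tumour 4 it was 32 (all genes 20.4%): 10 members were gained, with adjusted p-values between 0.0130 and 0.0358, and Ptpn22 was lost at 0.0932. In the fit with the tumour number as a block, 30 members were higher, against 23.0% of all tested genes, and 0 were lower, against 22.1%.

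**Figure D4:**
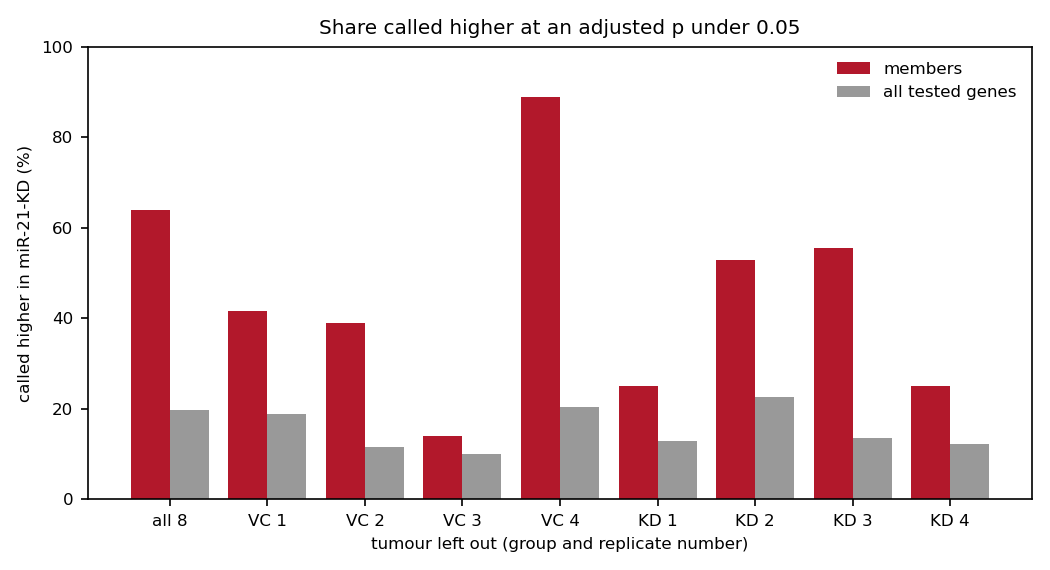
Share of the 36 tested members (red) and of all tested genes (grey) called higher in the miR-21-KD group, with adjusted p under 0.05 (vertical axis, %), with all 8 tumours and with each tumour left out (horizontal axis). The members' share ran from 5 of 36 without VC tumour 3 (13.9%, all genes 9.9%) to 32 of 36 without VC tumour 4 (88.9%, all genes 20.4%). It was above that of all genes in each fit, though by little without VC tumour 3.

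Ratios of transcripts within a tumour, which do not depend on library scaling, were set against each other by exact permutation of the group labels, two-sided. The smallest p that 4 against 4 allows is 0.0286, and p-values were adjusted over the 7 ratios. A lone ratio could then reach an adjusted p of 0.20 at the least, and 5 of the 7 would have to be at the smallest p to fall under 0.05, so the ratios are a description and the p-values say nothing of whether they were alike. The log2 ratio of Cd4 to Cd8a was 2.14 ± 1.01 in the VC and 2.13 ± 0.759 in the miR-21-KD group (mean ± SD, n = 4, difference -0.01, exact p = 0.943, adjusted p = 0.971), and VC tumour 2 and miR-21-KD tumour 3 had the highest values of their groups, 3.20 and 3.17. The ratio of the CD8 chains, Cd8b1 to Cd8a, was -0.69 ± 0.315 in the VC and -0.47 ± 0.0968 in the miR-21-KD group (mean ± SD, n = 4, difference 0.21, exact p = 0.286, adjusted p = 0.40). That of Cd247 to Cd3e was -0.91 ± 0.296 in the VC and -0.90 ± 0.217 in the miR-21-KD group (mean ± SD, n = 4, difference 0.01, exact p = 0.971, adjusted p = 0.971). The ratios of kinases to Cd3e had lower means in miR-21-KD tumours. For Lck to Cd3e the values were 1.31 ± 0.235 in the VC and 0.84 ± 0.195 in the miR-21-KD group (mean ± SD, n = 4, difference -0.48, exact p = 0.0571, adjusted p = 0.20). For Fyn to Cd3e they were 3.30 ± 0.629 in the VC and 2.38 ± 0.428 in the miR-21-KD group (mean ± SD, n = 4, difference -0.92, exact p = 0.0571, adjusted p = 0.20). Set beside the VC tumour of the same number, both ratios were lower in the miR-21-KD tumour in 4 of 4 pairs, by differences of -0.63 to -0.30 for Lck and -2.0 to -0.27 for Fyn, and an exact sign-flip test of 4 pairs cannot go below p = 0.125. For Tec to Cd3e they were 1.78 ± 0.512 in the VC and 1.19 ± 0.56 in the miR-21-KD group (mean ± SD, n = 4, difference -0.59, exact p = 0.20, adjusted p = 0.35). CD45 per CD3 transcript, Ptprc to Cd3e, was 4.36 ± 0.329 in the VC and 3.79 ± 0.36 in the miR-21-KD group (mean ± SD, n = 4, difference -0.57, exact p = 0.114, adjusted p = 0.267). Tec and Ptprc per Cd3e were each lower in 3 of 4 pairs.

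Of 63 other genes of the TCR pathway, all of them tested, 19 (30.2%) were higher in the miR-21-KD group and 4 (6.35%) lower, against 19.6% and 19.5% of all tested genes, with a median log2 fold change of 0.24. The constant regions of the receptor itself, named after their values were seen, had 1 of 3 called. The number was 3 without VC tumour 4 (all genes 20.4%), 2 without miR-21-KD tumour 3 (all genes 13.6%) and 1 with any other tumour left out. Trbc1, for a beta chain constant region, was at 5.08, 2.23, 3.7 and 6.43 CPM in the VC tumours, and at 19, 12, 9.16 and 18.5 CPM in the miR-21-KD tumours. No overlap was seen between the groups (log2 fold change 1.75 ± 0.359 (SE), adjusted p = 0.00988). Trac, for the alpha chain constant region, did not pass (log2 fold change 0.98, 95% interval 0.11 to 1.85, adjusted p = 0.0699). Neither did Trbc2, the other beta constant region (log2 fold change 1.27, 95% interval 0.24 to 2.30, adjusted p = 0.053). Both passed with the block, Trac at log2 fold change 1.06 and adjusted p = 0.0388 with the replicate block and Trbc2 at log2 fold change 1.36 and adjusted p = 0.0204 with the replicate block. Trbc1 and Trbc2 are nearly identical, so reads of the pair may not be fully told apart.

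The proximal signalling genes had 8 of 18 higher and 1 lower, the calcium and diacylglycerol branch 2 of 19 higher and 2 lower, the NF-kappaB branch 4 of 10 higher and 0 lower, and the inhibitors 4 of 13 higher and 1 lower. Set against the 19.6% of all tested genes called higher, the calcium and diacylglycerol branch was below that share at 10.5%, the inhibitors stood at 30.8%, the NF-kappaB branch at 40% and the proximal genes at 44.4%, with 10 to 19 genes in each. With the replicate block, 26 of the 63 were higher and 4 lower, against 23.0% and 22.1% of all tested genes. The 7 gained were Trac, Trbc2, Sos1 and Was, and the inhibitors Pag1, Cbl and Sit1, named for having gained the call, so that 7 of 13 inhibitors were higher with the replicate block. The higher genes with the smallest adjusted p were Orai1, Pik3r1 and Dgka. Orai1, the pore of the calcium channel opened after TCR engagement, was at 29.6 ± 2.62 CPM in the VC and 47.5 ± 4.8 CPM in the miR-21-KD group (mean ± SD, n = 4) (log2 fold change 0.68 ± 0.106 (SE), adjusted p = 0.00571). Pik3r1, the regulatory subunit of PI3 kinase, was at 64 ± 4.93 CPM in the VC and 121 ± 28.6 CPM in the miR-21-KD group (mean ± SD, n = 4) (log2 fold change 0.92 ± 0.162 (SE), adjusted p = 0.00699). Dgka, a kinase that removes diacylglycerol, was at 53.9 ± 7.97 CPM in the VC and 85.1 ± 7.61 CPM in the miR-21-KD group (mean ± SD, n = 4) (log2 fold change 0.66 ± 0.123 (SE), adjusted p = 0.00764). The 4 lower genes were Vav3, Ppp3cb, Dgkz and Itpr3. Vav3, a guanine exchange factor, was at 128 ± 19.8 CPM in the VC and 64.3 ± 20 CPM in the miR-21-KD group (mean ± SD, n = 4) (log2 fold change -0.99 ± 0.22 (SE), adjusted p = 0.0122). Ppp3cb, a catalytic subunit of calcineurin, was at 98.7 ± 5.57 CPM in the VC and 81.3 ± 7.37 CPM in the miR-21-KD group (mean ± SD, n = 4) (log2 fold change -0.28 ± 0.0861 (SE), adjusted p = 0.0324). Dgkz, another diacylglycerol kinase, was at 152 ± 16.1 CPM in the VC and 124 ± 7.51 CPM in the miR-21-KD group (mean ± SD, n = 4) (log2 fold change -0.30 ± 0.0959 (SE), adjusted p = 0.0365). Itpr3 is an inositol trisphosphate receptor (log2 fold change -0.77 ± 0.246 (SE), adjusted p = 0.0376). Most of these signalling genes are also made by carcinoma, stromal or myeloid cells. The counts depended on single tumours here too. Without VC tumour 3, 9 of the 63 were higher, against 9.90% of all tested genes, and 1 of them was a proximal signalling gene. The proximal genes called higher numbered 3 of 18 without miR-21-KD tumour 1 (all genes 12.9%), 3 without miR-21-KD tumour 4 (all genes 12.1%) and 5 without VC tumour 2 (all genes 11.6%). The inhibitors called higher numbered 2 of 13 without VC tumour 2 (all genes 11.6%) and 7 without VC tumour 4 (all genes 20.4%). The calcium and diacylglycerol branch had 3 of 19 higher without VC tumour 4 (all genes 20.4%) and 1 without VC tumour 3 (all genes 9.90%), miR-21-KD tumour 1 (all genes 12.9%), miR-21-KD tumour 3 (all genes 13.6%) or miR-21-KD tumour 4 (all genes 12.1%). It had 0 lower except without VC tumour 4, with 2 (all genes 18.4%), and without miR-21-KD tumour 2, with 3 (all genes 24.3%). Genes of the 63 called lower numbered 2 without VC tumour 1 (all genes 16.6%), 1 without VC tumour 2 (all genes 10.8%), 1 without VC tumour 3 (all genes 10.2%) and 3 without VC tumour 4 (all genes 18.4%). They numbered 1 without miR-21-KD tumour 1 (all genes 13.7%), 5 without miR-21-KD tumour 2 (all genes 24.3%), 1 without miR-21-KD tumour 3 (all genes 12.2%) and 1 without miR-21-KD tumour 4 (all genes 11.1%).

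Markers of other cell types were counted in the same way, and their counts from the fit to all 8 tumours stand against 19.6% of all tested genes called higher. B cell markers were called in 0 of 5 tested genes (9 listed), and their transcripts were most abundant in both tumours numbered 4. Without VC tumour 4, 2 of the 5, Cd22 and Cd79b, were higher (all genes 20.4%), and with the replicate block 1, Cd22, was higher (all genes 23.0%). Cd79a, whose levels stand beside Cd8a, was called in neither fit. Summed over the list they were at 20.8, 18.2, 17 and 199.6 CPM in the VC tumours, and 75.9, 40.4, 44.4 and 138 CPM in the miR-21-KD tumours. Of 6 lymph node stroma markers, 3 were tested and 0 called, while 1 was higher without VC tumour 1 (all genes 18.9%), without VC tumour 4 (all genes 20.4%) and with the replicate block (all genes 23.0%). Their sum was highest in the tumours numbered 4, at 4.27, 0.558, 2.13 and 18.1 CPM in the VC tumours, and 7.91, 9.89, 6.57 and 42.7 CPM in the miR-21-KD tumours, and Glycam1, a ligand of high endothelial venules that mammary epithelium can also make, was at 0.884, 0.0797, 0.63 and 9.69 CPM in the VC tumours, and at 0.807, 0.393, 0.892 and 23.8 CPM in the miR-21-KD tumours. The lymph node chemokine gene Ccl19 was at 0 in all tumours, and Ccl21a was at 0 in all but the tumours numbered 4, at 0.163 and 0.234 CPM. Leaving out both tumours numbered 4, an alternative added after the data were seen, 20 of 36 members were higher, against 11.0% of all tested genes.

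Markers of naive and recirculating T cells were higher for 6 of 7 genes, and their sum was 89.1 to 171 CPM in the VC and 226 to 385 CPM in the miR-21-KD group. Ccr7, the homing receptor for lymph nodes, was at 21.4, 9.57, 16.9 and 23.5 CPM in the VC tumours, and at 68.4, 62, 40.7 and 52.9 CPM in the miR-21-KD tumours (log2 fold change 1.65 ± 0.275 (SE), adjusted p = 0.00656). Il7r, the receptor for interleukin 7, was at 27, 10.8, 19 and 24.8 CPM in the VC tumours, and at 100.5, 60.5, 46.7 and 59.6 CPM in the miR-21-KD tumours (log2 fold change 1.71 ± 0.319 (SE), adjusted p = 0.00779). For both, every miR-21-KD tumour was above every VC tumour. The only one of this list that did not pass was Tcf7 (log2 fold change 0.66, 95% interval -0.02 to 1.35, adjusted p = 0.107), and it passed with the block (log2 fold change 0.70 and adjusted p = 0.0461 with the replicate block).

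NK cell markers were higher for 2 of 6 tested genes (8 listed), Eomes and Klrb1c, with sums of 4.78 to 18 CPM in the VC and 23.4 to 43.3 CPM in the miR-21-KD group. NK cells also make Cd247, Zap70, Lck, Fyn, Cd2, Cd7, Txk and Sh2d1a. Dendritic cell markers were higher for 4 of 8, with sums of 55 to 173 CPM in the VC and 206 to 358 CPM in the miR-21-KD group. Macrophage and monocyte markers, of cells that also make Ptprc, Tec, Lcp2 and Fyb, were higher for 8 of 10, and their sums were 2801 to 4043 CPM in the VC and 5548 to 8653 CPM in the miR-21-KD group. Neutrophil markers were higher for 1 of 8 tested genes (9 listed), mast cell markers for 0 of 6 and endothelial markers for 1 of 7, which is at or below the share of all tested genes. The sums of these 3 lists overlapped between groups, at 293 to 863 CPM in the VC and 399 to 913 CPM in the miR-21-KD group, 132 to 340.4 CPM in the VC and 204 to 303 CPM in the miR-21-KD group and 422 to 732 CPM in the VC and 617 to 871 CPM in the miR-21-KD group respectively. Fibroblast markers were higher for 5 of 7, at 3059.6 to 8033 CPM in the VC and 10449.5 to 23335 CPM in the miR-21-KD group, and epithelial markers for 4 of 6 (Epcam, Cdh1, Krt5 and Krt14) with Krt18 lower, at 1274 to 2199.8 CPM in the VC and 849 to 1542 CPM in the miR-21-KD group. Without VC tumour 3 (all genes 9.90%), 3 macrophage and monocyte, 2 fibroblast, 2 epithelial, 1 NK cell and 1 mast cell markers were higher, and 0 neutrophil and 0 endothelial markers. Without miR-21-KD tumour 4 (all genes 12.1%), 5 macrophage and monocyte markers were higher. Epithelial markers were higher for 2 without VC tumour 2 (all genes 11.6%). With VC tumour 1, 2 or 3 or miR-21-KD tumour 3 or 4 left out, 0 epithelial markers were lower (all genes 10.2% to 16.6%). Without miR-21-KD tumour 2, 2 were lower (all genes 24.3%). NK cell markers were higher for 1 without miR-21-KD tumour 1 (all genes 12.9%) and for 5 without VC tumour 4 (all genes 20.4%). Neutrophil markers were higher for 3 and endothelial markers for 2 without VC tumour 1 (all genes 18.9%), and dendritic cell markers for 7 without miR-21-KD tumour 2 (all genes 22.5%). With the replicate block (all genes 23.0% higher and 22.1% lower), 6 dendritic cell, 6 fibroblast, 3 neutrophil and 2 endothelial markers were higher, and 1 endothelial marker, Emcn, and 2 epithelial markers, Krt8 and Krt18, were lower. The part of these other cells in the changes of the T cell genes was not tested.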

How the data were processed

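Total RNA from 8 whole 4T1.13 tumours, 4 VC and 4 miR-21-KD, was sequenced. The authors deposited raw read counts per Entrez gene, 1 column per tumour, without normalization. The submitters' processing notes name Subread, featureCounts, edgeR, limma and mm10, and their versions and the strand setting of the counting are not given in the sources used here. Symbols came from RefSeq (GRCm38.p6) and matched 25275 of 27179 identifiers. Gene positions and exon lengths came from GENCODE M21.

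The counts were analysed with edgeR 4.0.16 (R 4.3.3). After filterByExpr (minimum count 10, minimum total 15) and TMM scaling, groups were compared by the quasi-likelihood test with robust settings, with Benjamini-Hochberg adjustment over 14382 genes and a threshold of 0.05. The fit was tested on simulated counts. Median log2 fold change over all genes was -0.01. Total counts were 12134849 to 13592695 per tumour, and floors and intervals of counts cover counting error only. Single ratios used a pseudocount of 0.5 and exact two-sided permutation tests. Alternatives were DESeq2 1.42.0, scaling by library size or upper quartile, no low-count filter, a minimum of 10 counts in each tumour, limma-voom (limma 3.58.1) with and without quality weights, a replicate block, each tumour left out, a pseudocount of 2, and both tumours numbered 4 left out.

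The labels number tumours 1 to 4 in both groups. After removal of group means, tumours of the same number correlated at 0.27, 0.42, 0.18 and 0.38 over genes, all above 0.1, and the number was therefore taken to pair tumours. Of the 12 differently numbered pairs, 4 also correlated above 0.1 (0.15 to 0.39), and 5 of 8 tumours correlated best with their own number. This pairing comes from the data, since the labels name no shared litter, batch or day. No 2 tumours of a group agreed within sampling noise.

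The 37 members and the lists of other pathway genes and cell type markers were chosen with earlier results of these data known. Named genes are all 37 members, the 3 other pathway genes with the smallest adjusted p among those called in each direction, and markers whose level stands beside a result; the other genes named were chosen after their values were seen. 1 marker gene is not reported here and is in no count or sum. A proteomics table of the study was not used here.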

Additional observations from a re-analysis of the deposited data

Results flagged for a closer look

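In groups of 4, the lowest or highest tumour stood apart from its group by Dixon's criterion in 4 of 72 groups of member values. The criterion is the gap to the nearest tumour divided by the range, both taken on log2 CPM. Chance alone flags about 5% of groups. Levels are printed in CPM, so the gaps do not follow from them without taking logarithms, and flags on the CPM scale were not tested. Cd8a was low in miR-21-KD tumour 3, at 4.94 CPM against 19.0 to 23.2 CPM in the others of its group (gap 0.871 of the log2 range). Cd5 was low in the same tumour, at 9.16 CPM against 16.5 to 18.7 CPM (gap 0.8292). Cd7 was low in VC tumour 2, at 1.99 CPM against 5.43 to 6.19 CPM (gap 0.883). Nfatc2 was low in VC tumour 4, at 28.5 CPM against 33.2 to 34.1 CPM (gap 0.840).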

How the results depend on the processing

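Of the 36 tested members, 0 were called lower in any of the 17 alternative fits. The number called higher, with the share of all genes tested in the same fit, was 30 with DESeq2 (24%), 21 with library size scaling (18.7%), 26 with upper-quartile scaling (21.2%), 19 without the low-count filter (12.7%), 26 with a minimum of 10 counts in each tumour (32 members left, 20.9%), 27 with limma-voom (20%), 30 with quality weights (28.2%) and 20 without both tumours numbered 4 (11%), against 23 in the fit reported (19.6%). It ran from 5 (9.9%) to 32 (20.4%) when each tumour was left out. With the replicate block it was 30 (23%), and the block changed no call of a member other than the 9 given with it above. The fitted change of Ets1 turned above 0 with upper-quartile scaling (0.014), with a minimum of 10 counts in each tumour (0.023), without both tumours numbered 4 (0.00064), and when tumours were left out (-0.20 to 0.052), and it was called in none of these. Other pathway genes called higher numbered 31 with quality weights (all genes 28.2%) and 9 (9.9%) to 26 (20.4%) with a tumour left out. Those called lower numbered 2 with a minimum of 10 counts in each tumour (all genes 18.2%), 7 with quality weights (28.8%), 1 without both tumours numbered 4 (9.13%) and 1 to 5 with a tumour left out (10.2% to 24.3%). The ratio of Cd4 to Cd8a changed sign with a pseudocount of 2 (0.019), and ran from -0.47 to 0.34 with a tumour left out. That of Cd247 to Cd3e ran from -0.12 to 0.11. The sign-flip test of the ratios over 4 pairs cannot go below 0.125 and so cannot pass. The causes of these shifts were not tested. At these depths, Sh2d1a, Themis, Tox and Trat1 rest on few reads.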
